A study of Arabidopsis thaliana with 44 samples.

Results

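Inflorescence RNA of the Arabidopsis floral mutants agamous and ap3-6 was compared on Affymetrix ATH1 microarrays. The members were the 2 agamous and the 2 ap3-6 microarrays, chosen by their labels, of 21 Affymetrix microarrays and 44 samples in all. The comparison ran over the 22746 probe sets that were not controls. Both mutant samples were buds that had not matured, of mixed stages. The agamous allele is not named in the labels, and no genetic background or plant number is given for either mutant. Other Affymetrix samples used here were wild-type inflorescence, ap1-10 inflorescence and the sup/ap1 double mutant, all from mixed immature buds, silique collected 24 to 48 h after fertilization, untreated 21 day leaf and root, growing callus, and leaves taken 4 h and 52 h after salicylic acid. Silique had 1 microarray and each other sample had 2, called A and B. The pair came from a single RNA sample as technical replicates, and each test below was therefore against technical error, with variation between plants not measured.

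AGAMOUS encodes a MADS-domain transcription factor that specifies stamens and carpels and ends the growth of the floral meristem. Without it, the flower repeats sepals and petals and forms neither stamens nor carpels. APETALA3 acts with PISTILLATA to specify petals and stamens, and without it sepals stand in the place of petals and carpels in the place of stamens. Both mutants therefore lack stamens, whereas agamous flowers hold petals and ap3-6 flowers hold carpels. ap1-10 disturbs sepals and petals, and superman mutants form additional stamens.

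No annotation of the Affymetrix probe sets was used here, so AGAMOUS, APETALA3 and the organ markers could not be looked up by name on these microarrays. Probe sets were instead grouped by where they were high in the other RNA samples. The median signal was 213 to 222 on the agamous microarrays and 224 to 225 on the ap3-6 microarrays. The 3' over 5' ratio of GAPDH, a check of RNA integrity, was 1.20 and 1.29 in agamous and 0.908 and 1.17 in ap3-6. Among the other samples, 1 microarray stood apart, namely A of the leaves 4 h after salicylic acid, with a GAPDH ratio of 10.3 and an actin ratio of 50.7, against at most 2.27 and 8.20 on the 11 floral microarrays. The main results that use that sample are given with and without this microarray. Counts of the highest signal, class overlaps and shares above the median signal are given only with it.

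The mutants differed at 1451 probe sets, or 6.38% of those tested (limma, Benjamini-Hochberg adjusted p under 0.05). The signal was higher in agamous at 812 probe sets (3.57%) and higher in ap3-6 at 639 (2.81%). Most differences were of moderate size, with a median log2 ratio of 1.16 in the first set and -1.16 in the second. Over 8-fold, 94 probe sets were higher in agamous and 58 in ap3-6, over 16-fold the numbers were 47 and 17, and over 32-fold they were 24 and 4. Many of these folds rest on signals near the bottom of the scale, with a median of 3.43 in ap3-6 for the 47. With the lower mutant at a signal of at least 50, the numbers over 8-fold were 17 and 11 and over 16-fold 5 and 3, and with a pseudocount of 32 the ratios of the called probe sets exceeded 8-fold at 27 and 8 and 16-fold at 8 and 2. Leaving out agamous A, agamous B or ap3-6 A lowered the count of calls to 751, 705 or 790, and without ap3-6 B the calls higher in ap3-6 fell to 388. In bulk RNA, fewer cells of a type and less RNA per cell cannot be told apart.

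**Figure D1:**
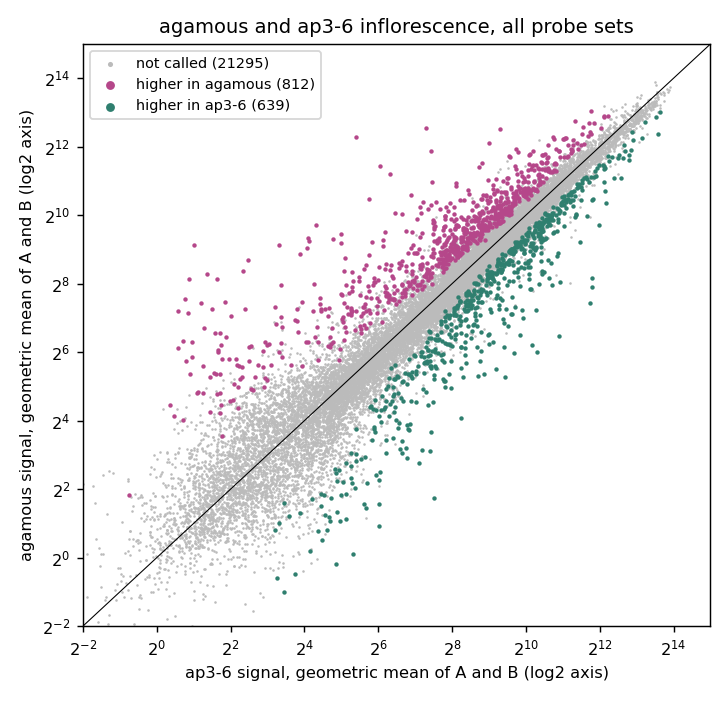
Signal of each of the 22746 probe sets in ap3-6 (horizontal axis) and agamous (vertical axis), as geometric means of A and B on log2 axes, with the line of equal signal. The 812 probe sets called higher in agamous lie above the line and the 639 called higher in ap3-6 below it, and calls at low signal lie far from the line.

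The A and B signals of the mutants did not overlap at any of the 1451 called probe sets, but such a separation was common. Both agamous signals exceeded both ap3-6 signals at 21.8% of all probe sets, and the reverse held at 28.4%. Technical error depended on signal. Its median SD on the log2 scale was 1.02 in the lowest of 4 equal bins of mean signal and 0.169 in the highest, and the lowest bin held 56 of the calls higher in agamous and 40 of those higher in ap3-6. The log2 ratio of the A microarrays correlated with that of the B microarrays at a Pearson's r of 0.338 over all 22746 probe sets and 0.729 over the 11373 above the median signal, a description across probe sets, which are not independent.

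Called probe sets were well expressed in the mutant where they were higher. Their median signal was 691 in agamous against 279 in ap3-6 for the first set, and 527 in ap3-6 against 218 in agamous for the second. The higher mutant reached a signal of 1000 at 286 and 205 probe sets, and the lower mutant fell under 50 at 161 and 146. The agamous signal was the highest of all 11 RNA samples at 209 of the 812 probe sets, and the ap3-6 signal was the highest at 110 of the 639. At most called probe sets wild type was not below both mutants. The wild-type inflorescence signal lay between the mutants at 467 of the 812 and 404 of the 639 probe sets. It lay above both at 264 and 93, and below both at 81 and 142. The sets were chosen because the mutants differed, which favors a highest signal in the higher mutant and wild type between them. The same counts over all probe sets were not taken.

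Against wild-type inflorescence, 1048 probe sets were higher in agamous (4.61%) and 1376 were lower (6.05%), while 1473 were higher in ap3-6 (6.48%) and 1773 lower (7.79%) by limma. These comparisons share the wild-type microarrays with each other and the mutant microarrays with the comparison above, so they are given side by side. Calls in which one mutant had gained signal and calls in which the other had lost it both occurred. Among the 812 probe sets, 44 were over 4-fold above wild type in agamous while ap3-6 was less than 2-fold above it, and 70 were over 4-fold below wild type in ap3-6 while agamous was less than 2-fold below it. Among the 639, the corresponding numbers were 28 and 77.

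The probe sets with the highest and lowest ratios among calls with a signal of at least 200 in the higher mutant show these cases. There were 660 such calls on the agamous side and 475 on the ap3-6 side. Probe set 250648_at gave a signal of 539 and 590 in agamous, 1.82 and 2.25 in ap3-6, and 72.4 and 73.1 in wild-type inflorescence. It was thus high in agamous and near the bottom of the scale in ap3-6, with wild type between them. Its log2 ratio of agamous over ap3-6 was 8.12 (SE 0.59, limma adjusted p = 4.31e-07). The ap3-6 signals are at the bottom of the scale, so the size of this ratio is uncertain, and with a pseudocount of 32 it was 4.13. Outside flowers, its highest signal was in leaves 52 h after salicylic acid, at 269.9 and 281, against 10.2 and 4.43 in untreated leaf.

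Probe set 260038_at was reduced in both mutants, but far more in ap3-6. Its signal was 278 and 283 in agamous, 2.30 and 1.44 in ap3-6, and 9650 and 7468 in wild-type inflorescence. The log2 ratio between the mutants was 7.27 (SE 1.20, limma adjusted p = 0.00107) and 3.21 with a pseudocount of 32, again with ap3-6 at the bottom of the scale, and both mutants were below wild type. In ap1-10 it stayed at 11636 and 9547, in sup/ap1 at 10974 and 10123, and silique gave 2.43.

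On the ap3-6 side, the 2 probe sets taken by the same rule both fell in agamous. The 58 calls over 8-fold higher in ap3-6 differed from them as a set. Their median signal was 97.6 in ap3-6, 7.18 in agamous and 35.3 in wild-type inflorescence. Probe set 260941_at gave a signal of 99.7 and 78.8 in agamous, 2090 and 1749 in ap3-6, and 2499 and 1999 in wild-type inflorescence. ap3-6 was close to wild type and agamous was at the level of silique, which gave 75.7. The log2 ratio was -4.43 (SE 0.26, limma adjusted p = 7.66e-08). Probe set 257629_at was also low in agamous, while its ap3-6 signal was above wild type, at 72.9 and 56.8 in agamous, 1335 and 1213 in ap3-6, and 784 and 685 in wild-type inflorescence, with a log2 ratio of -4.31 (SE 0.43, limma adjusted p = 1.19e-05). The sup/ap1 signal of these probe sets differed, being 4581 and 4584 for 260941_at and 201 and 202 for 257629_at. Neither was high in silique, where 257629_at gave 50.9.

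**Figure D2:**
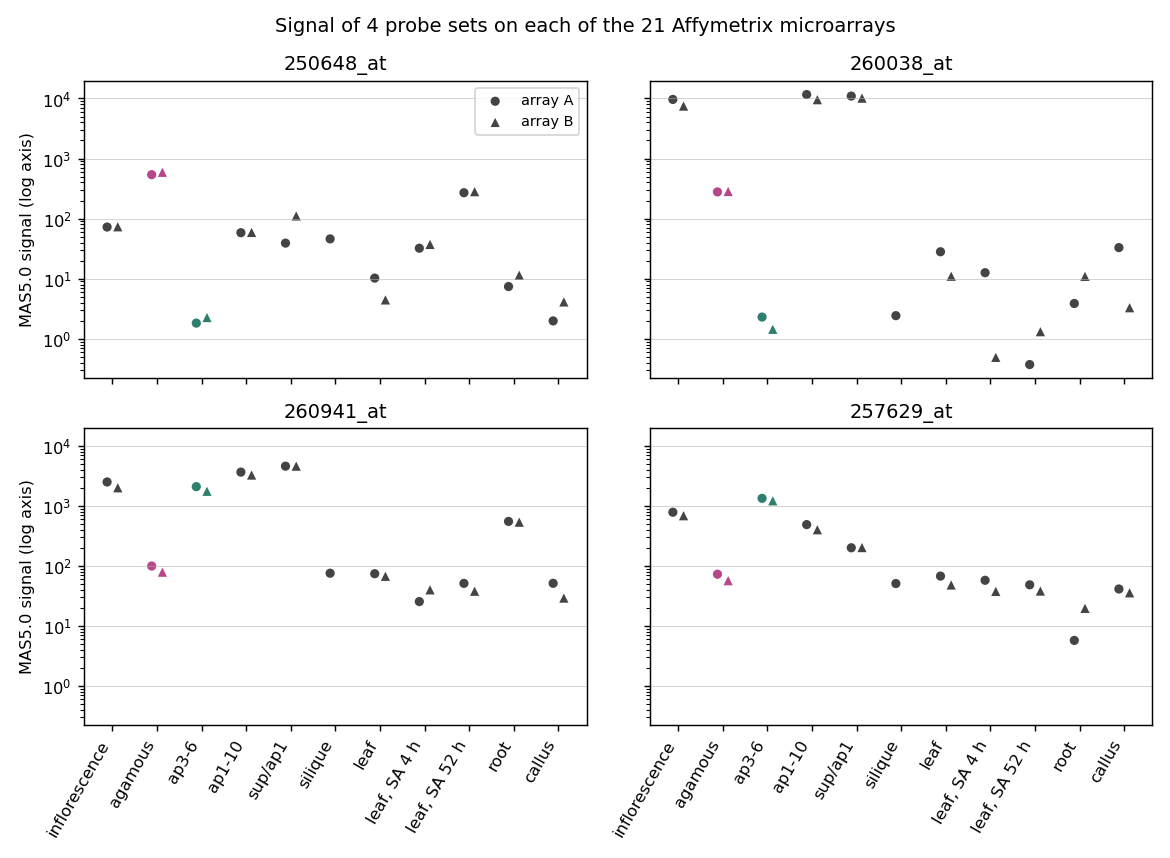
MAS5.0 signal (log axis) of 4 probe sets on each of the 21 Affymetrix microarrays by RNA sample, with circles for A and triangles for B. 250648_at is high in agamous and in leaves 52 h after salicylic acid (SA), 260038_at is lost from ap3-6 and silique and reduced in agamous, and 260941_at and 257629_at fall in agamous while ap3-6 stays near or above wild type.

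Probe sets high in wild-type inflorescence were mostly low in both mutants. This class held 295 probe sets with at least 4-fold more signal in wild-type inflorescence than in each of callus, leaf, root and silique and a signal of at least 200, so the mutant microarrays were not used to choose it. Relative to wild type, 224 of the 295 (75.9%) were at least 4-fold lower in both mutants. The wild-type microarrays in this ratio also chose the class, which favors a low ratio. The same share over all probe sets was not taken. The median signal of the 224 was 1075 in wild-type inflorescence, 47.7 in agamous and 20.4 in ap3-6. In ap1-10 it was 1216 and in sup/ap1 1612, and in silique, which the class limit kept low, 39.4. The signal of most of this class was thus low in the 2 mutants that form no stamens and near or above wild type in the others.

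What remained of this signal was larger in agamous than in ap3-6. Within the class, 69 probe sets (23.4%, against 3.57% of all) were called higher in agamous and 19 (6.44%, against 2.81%) higher in ap3-6. The median log2 ratio of agamous over ap3-6 was 1.02 over the class and -0.05 over all probe sets. Of the 224 probe sets low in both mutants, 50 were called higher in agamous and 2 higher in ap3-6. The difference was clearest where wild type was bright. Over the 60 of these with a wild-type signal of at least 2000, the median signal in agamous was 2.43% of wild type (2.41% on A, 2.43% on B) and in ap3-6 0.446% (0.561% on A, 0.365% on B). Untreated leaf gave 0.435% for the same probe sets and silique 1.18%. Low leaf and silique signal was a condition of the class, so these values are no independent baseline for the mutants. Of the 60, 31 were called higher in agamous and 1 higher in ap3-6, and both agamous signals exceeded both ap3-6 signals at 53. Without 1 of the 4 mutant microarrays, 46 to 55 of the class were called higher in agamous and 8 to 12 higher in ap3-6, the latter being 10 without agamous A and 8 without agamous B or ap3-6 A. Of the 34 class members above the median signal, 10 and 3 were called when those probe sets were fitted alone. What the remaining signal in agamous came from was not tested.

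Few inflorescence-high probe sets were low in a single mutant. In 9 of the 295, ap3-6 was at least 4-fold below wild type while agamous was less than 2-fold below it, and 6 of the 9 were called higher in agamous than in ap3-6. Their median signal was 1042 in wild-type inflorescence, 815 in agamous, 53.4 in ap3-6, 342 in ap1-10 and 732 in sup/ap1. The log2 ratios of ap1-10 to wild type ranged from -3.30 to 0.10 over these 9, and 2 of them passed the test as lower in ap1-10. The converse pattern held for 13, with a median of 441 in wild-type inflorescence, 70.1 in agamous, 514 in ap3-6, 442 in ap1-10 and 30.1 in silique, and 12 of the 13 were called higher in ap3-6 than in agamous. The 2 probe sets 260941_at and 257629_at belong to it. None of the 13 exceeded a signal of 75.7 in silique, but the class limit itself kept silique at least 4-fold below wild-type inflorescence. A further 20 were less than 2-fold below wild type in both mutants or above it, with medians of 1473, 1744 and 1414 in wild type, agamous and ap3-6, and 29 fitted none of these patterns. The patterns were set by the mutants' own ratios to wild type and are a description.

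**Figure D3:**
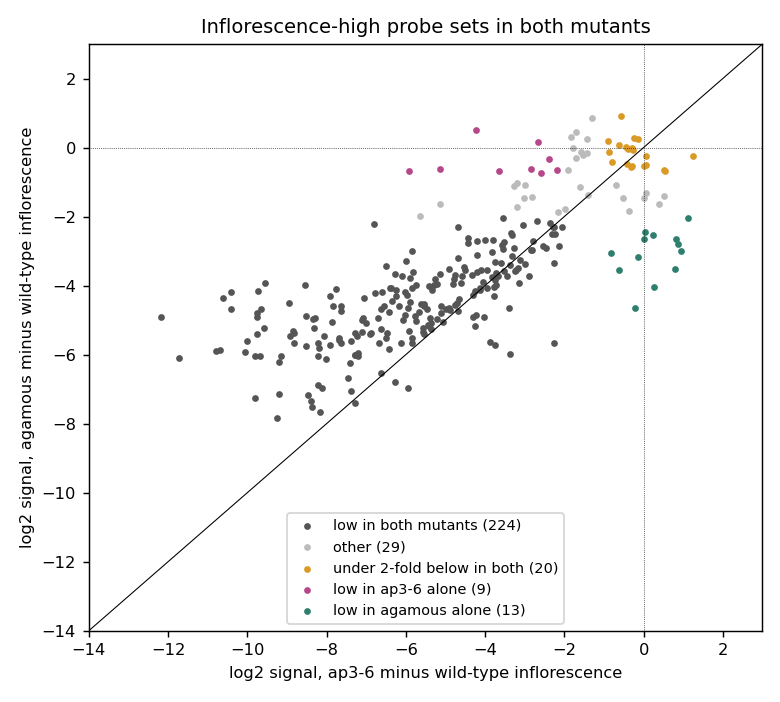
Log2 signal relative to wild-type inflorescence in ap3-6 (horizontal axis) and agamous (vertical axis) for the 295 inflorescence-high probe sets, colored by pattern, with the line of equal change. The 224 probe sets low in both mutants lie mostly above the line, where ap3-6 is lower than agamous, and 9 and 13 probe sets are low in a single mutant.

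Silique-high probe sets were called in small numbers on both sides, at shares above those of all probe sets. Of 169 such probe sets, 9 were called higher in ap3-6 (5.33%, against 2.81% of all) and 7 higher in agamous (4.14%, against 3.57%). Their median log2 ratio of agamous over ap3-6 was -0.31, and their median signal was 32.7 in agamous, 43.2 in ap3-6, 51.9 in wild-type inflorescence and 1040 in silique. Both ap3-6 signals exceeded both agamous signals at 71 of the 169 (against 28.4% of all probe sets), and the reverse held at 28 (against 21.8%). The counts of calls were 4 or 5 higher in agamous and 5 to 7 higher in ap3-6 without 1 of the mutant microarrays, and with a class limit of 8-fold 1 and 6 of 106 probe sets were called. With a pseudocount of 32 they were 10 and 18. Of the 11 class members above the median signal, 2 and 2 were called when those probe sets were fitted alone. Where inflorescence and silique were high together, the calls were mostly on the agamous side. Of 191 probe sets at least 4-fold above callus, leaf and root in both, 41 were higher in agamous (21.5%) and 17 in ap3-6 (8.90%). The median log2 ratio over the 191 was 0.44, though the median signal was 477 in agamous and 552 in ap3-6. Wild-type inflorescence gave 1306, and 20 of the 191 were also inflorescence-high. Without 1 of the mutant microarrays these calls were 23 to 29 and 10 to 14 (23 and 10 without agamous B), and the 11 floral microarrays alone gave 79 and 35.

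Among the remaining classes, leaf-high probe sets leaned to ap3-6, and those of root and callus leaned less to either mutant. Of 127 leaf-high probe sets, 23 were higher in ap3-6 (18.1%, against 2.81% of all) and 4 higher in agamous (3.15%, against 3.57%). Their median signals were 117 in ap3-6 and 68.9 in agamous. Wild-type inflorescence gave 81.1 for them. Leaving out 1 mutant microarray left 14 to 18 of these calls on the ap3-6 side, the lowest without agamous B. Root-high probe sets were called in 8 of 472 cases on the agamous side (1.69%) and 12 on the ap3-6 side (2.54%), both below the share of all probe sets. Callus-high probe sets gave 35 (7.59%) and 44 (9.54%) of 461, both above the share of all probe sets. Those high in inflorescence, leaf and silique together gave 24 (3.30%) and 34 (4.68%) of 727. Without 1 of the mutant microarrays the callus-high calls were 18 to 27 and 24 to 29, those of the joint class 9 to 14 and 14 to 21, and the root-high calls 5 to 9 and 6 to 8. The joint class had fewer calls on both sides whichever of the 4 was left out, and the lowest callus-high counts came without agamous B. Most calls belonged to no class, namely 554 of the 812 and 409 of the 639.

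**Figure D4:**
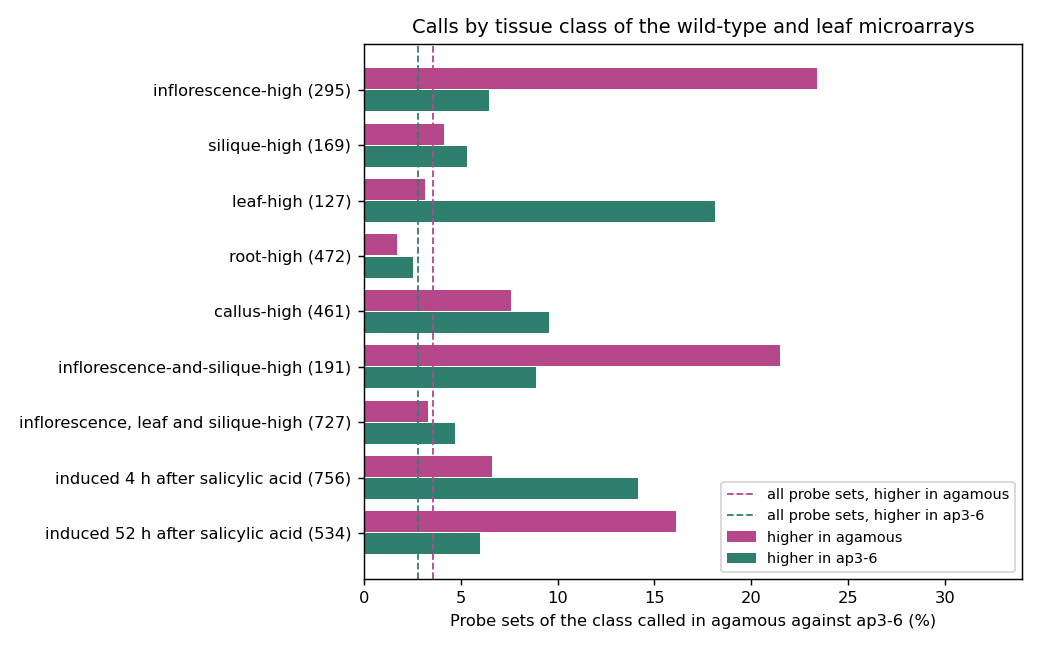
Percentage of each tissue class called higher in agamous or higher in ap3-6, with the number of probe sets per class in parentheses and dashed lines at the percentages over all probe sets (3.57% and 2.81%). Inflorescence-high, inflorescence-and-silique-high and late salicylic acid classes lean to agamous, and leaf-high and early salicylic acid classes lean to ap3-6.

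The called probe sets were placed on the silique and wild-type inflorescence microarrays, which do not enter the ratio of the mutants. Both sets held more probe sets that were lower in silique than higher. Of the 639 probe sets higher in ap3-6, 102 were higher in silique than in inflorescence (16.0%, against 6.49% of all) and 164 were lower (25.7%, against 9.24%). For the 812 higher in agamous, 93 were higher in silique (11.5%) and 239 lower (29.4%). Above the median signal, where calls were more frequent, 8.49% of all probe sets were higher and 11.4% lower. There the ap3-6 set gave 17.5% and 27.7%, and the agamous set 13.0% and 26.7%. The median log2 ratio of silique over inflorescence was -0.19 in the first set, -0.26 in the second and -0.04 over all probe sets. Taking inflorescence A or B alone gave -0.24 and -0.18 in the first set and -0.26 and -0.30 in the second. The quartiles overlapped widely, from -0.95 to 0.53 in the ap3-6 set and from -1.06 to 0.35 in the agamous set, and the single silique microarray was assumed to vary like the other samples.

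The ap1-10 microarrays divided the 2 sets. Among probe sets higher in agamous, 266 of 812 were lower in ap1-10 than in wild-type inflorescence (32.8%, against 3.61% of all) and 19 were higher (2.34%, against 3.57%). Among those higher in ap3-6, 137 of 639 were higher in ap1-10 (21.4%) and 30 were lower (4.69%). Above the median signal, 39.6% of the agamous set were lower in ap1-10, against 5.99% of all probe sets there. Of the ap3-6 set above it, 28.4% were higher, against 6.08%. The median log2 ratio of ap1-10 over wild type was -0.48 in the agamous set, 0.32 in the ap3-6 set and -0.005 over all probe sets. On A alone the medians of the 2 sets were -0.48 and 0.31, and on B alone -0.46 and 0.29. ap1-10 thus deviated from wild type in the direction in which ap3-6 differed from agamous. Leaving out 1 microarray of agamous, ap3-6 or wild-type inflorescence gave 143 to 211 probe sets lower in ap1-10 in the agamous set and 69 to 135 higher in ap1-10 in the ap3-6 set, the lowest numbers without agamous B. Of the 812, the ap1-10 signal lay below both mutants at 296, and it lay between them at 377.

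The sup/ap1 microarrays did not divide them in this way. In the agamous set, 61 probe sets were higher in sup/ap1 than in wild type (7.51%, against 2.58% of all) and 94 were lower (11.6%, against 2.12%). In the ap3-6 set, 63 were higher (9.86%) and 66 lower (10.3%). Above the median signal, 4.07% of all probe sets were higher and 3.17% lower. There the agamous set gave 9.47% and 12.8%, and the ap3-6 set 12.5% and 12.3%. The medians of the whole sets were -0.08 and -0.05 against -0.03 over all probe sets. No test of the difference between ap1-10 and sup/ap1 was made.

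**Figure D5:**
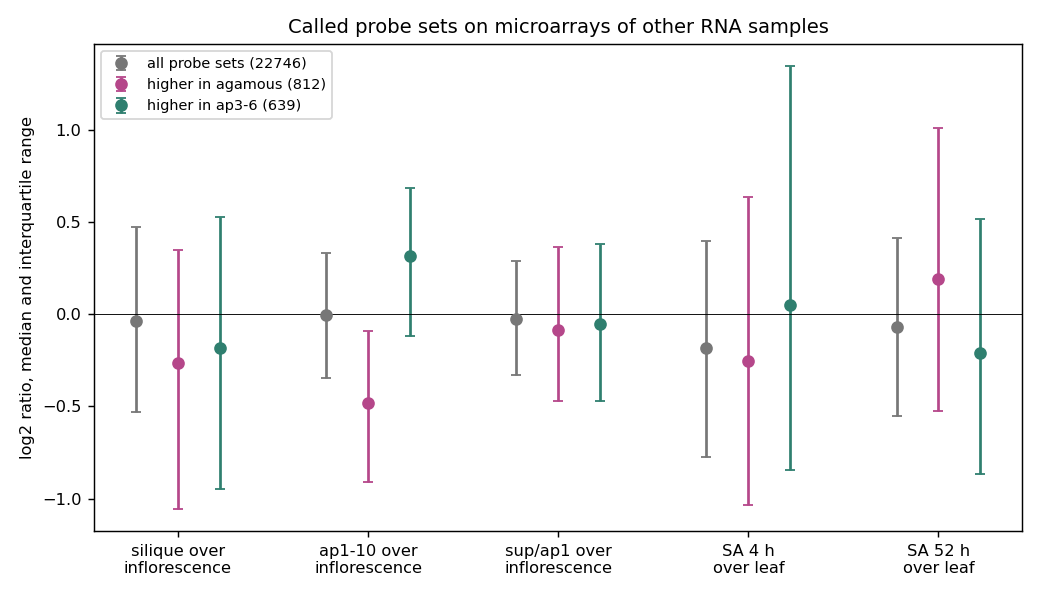
Median (point) and interquartile range (bar) of the log2 ratio of other RNA samples for all 22746 probe sets, the 812 higher in agamous and the 639 higher in ap3-6. The medians of the called sets are on opposite sides of 0 for ap1-10 over wild-type inflorescence (-0.48 and 0.32) and for leaves 52 h after salicylic acid (SA), and on the same side for silique and sup/ap1. At SA 4 h they are -0.25 and 0.05 with both microarrays, and -0.32 and -0.02 without A.

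Probe sets higher after salicylic acid, a hormone of plant defense, than in untreated leaf were also divided between the mutants. The labels name no mock-treated leaves and no age of the treated leaves. An effect of the hormone therefore cannot be told apart from those of handling, time of collection or age. A class of 534 probe sets was at least 4-fold higher 52 h after salicylic acid than in untreated leaf, and 86 of them were called higher in agamous (16.1%, against 3.57%) and 32 higher in ap3-6 (5.99%, against 2.81%). The reverse held for the 756 probe sets at least 4-fold higher at 4 h, where 50 were higher in agamous (6.61%) and 107 higher in ap3-6 (14.2%). The classes shared 246 probe sets. With the callus-high class, the early class shared 135 and the late class 51. Without the A microarray of the 4 h sample, the early class held 656 probe sets, 43 of them higher in agamous and 96 higher in ap3-6. Without 1 of the mutant microarrays the late class gave 54 to 65 and 15 to 20 calls, and the early class 30 to 39 and 61 to 79.

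Across the whole sets, 251 of the 812 probe sets higher in agamous were higher 52 h after salicylic acid than in leaf (30.9%, against 10.5% of all), and 168 were lower (20.7%, against 12.2%). Of the 639 higher in ap3-6, 127 were higher at 52 h (19.9%) and 191 lower (29.9%). At 4 h, 192 of the agamous set were higher (23.6%, against 13.4%) and 285 lower (35.1%, against 18.9%), and 215 of the ap3-6 set were higher (33.6%) and 195 lower (30.5%). Without the A microarray at 4 h, which gave sets of 824 and 663, these were 166 and 242 in the agamous set (20.1% and 29.4%, against 9.85% and 13.2% of all) and 189 and 172 in the ap3-6 set (28.5% and 25.9%). The median log2 ratio at 4 h in the ap3-6 set was 0.05, and it was -0.02 without the A microarray. With both microarrays, 19.0% of all probe sets above the median signal were higher at 4 h and 27.7% lower. There the agamous set gave 27.4% and 40.9%, and the ap3-6 set 33.6% and 40.0%. Of the 44 probe sets over 4-fold above wild type in agamous and not in ap3-6, 23 were in the late class and 7 in the early class, where these classes held 2.35% and 3.32% of all probe sets. Of the 28 over 4-fold above wild type in ap3-6 and not in agamous, 12 were in the early class and 3 in the late class. Without A at 4 h, the early class held 6 of 45 and 10 of 25. Without 1 microarray of agamous, ap3-6 or wild-type inflorescence, 19 to 24 of 37 to 48 on the agamous side were in the late class and 7 to 17 of 15 to 38 on the ap3-6 side in the early class, the lowest of the latter without agamous B. Flower stage, growth and handling of the plants were not given by sample, and their part in these differences was not tested.

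Named genes could be read for silique against inflorescence on the 2 Agilent microarrays that carried the same RNA samples, with silique in the red channel, inflorescence in the green channel and no dye swap. Differences were frequent there, with 37.9% of 21461 probes higher and 32.7% lower in silique (limma adjusted p under 0.05). Of 23 stamen, tapetum and pollen markers, 20 were lower and 1 was higher in silique, and 10 of the 20 were not well above background in silique. GRP17, an oleosin of the pollen coat, had a log2 ratio of -7.39 (SE 0.18, on 1 microarray), and LTP12, a tapetal lipid transfer protein, -7.23 (SE 0.25). AMS, a regulator of the tapetum, was well above background in inflorescence and not in silique.

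Genes of floral organ identity, carpels and petals were called in both directions, as were all probes, of which 37.9% were higher and 32.7% lower. Of 16 floral identity genes, 4 were higher in silique and 9 lower, and 3 of the 9 were not well above background in silique. Among the 4, SVP was not well above background in either sample. SEP1, a cofactor of the organ identity factors, was higher by a log2 ratio of 1.15. PI, the partner of AP3, was lower in silique by a log2 ratio of -5.68 and AP3 by -1.22, while AG gave -0.29 and was not called. Among 21 carpel and fruit regulators, 6 were higher in silique and 12 lower, with SHP1 and SHP2, which pattern the valve margin of the fruit, at 2.63 and 2.40 (SE 0.04 each), and CRC, a regulator of carpel growth, called lower and not well above background in silique. ETT, an auxin response factor of the carpel, gave -1.24. Ovule and seed coat genes gave 4 higher and 5 lower of 12, against 37.9% and 32.7% of all probes, including STK, an ovule identity gene, at 2.30, and TT12, a transporter of the seed coat, at 5.95. Among the genes of petal epidermis and cutin, 7 of 13 were lower in silique and 3 higher, with GPAT6, an acyltransferase of cutin synthesis, at -2.71 and SHN3, a regulator of cutin genes, at 2.78.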

How the data were processed

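RNA of 11 Arabidopsis samples was hybridized to 21 Affymetrix ATH1 microarrays, and per the labels each labeling began with 12 μg of total RNA. For 22810 probe sets per microarray, the authors deposited a MAS5.0 signal that was already scaled, and its trimmed mean was 500 on every microarray. The authors also deposited the Feature Extraction output of 12 Agilent microarrays, whose processed intensity in the red and green channels gave log2 ratios here. The number of microarrays limits the precision of all values. Detection calls and MPSS libraries were not used here.

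The 64 control probe sets were left out. Signals were log2-transformed, and limma (lmFit, then eBayes with a trend) estimated a mean for every RNA sample from all 21 Affymetrix microarrays, with 10 residual and 5.50 prior degrees of freedom, Benjamini-Hochberg adjustment over 22746 probe sets and a threshold of 0.05. Geometric means of A and B are given as signals. Counts in a class or set stand beside those over all probe sets and were not tested as sets. Agilent ratios were fitted over the 12 microarrays with 1 mean per type, without spots marked as outliers. The script was tested on simulated data.

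Named genes were to be taken from gene lists and from the highest and lowest ratios among calls with non-overlapping signals and a signal of at least 200. Since probe sets were not joined to genes, the lists were applied to the Agilent probes alone, where 242 of 248 list symbols were those of the reference table (TAIR10.1), and the 2 highest and 2 lowest probe sets are given by identifier. Tissue classes were set from the wild-type and leaf microarrays at 4-fold. The groups, lists and classes were chosen with earlier results of these data known. Alternatives were a filter at the median signal, a pseudocount of 32, quantile normalization, no trend, fits to the 11 floral or the 4 mutant microarrays, a replicate block, a 2-fold limit, an 8-fold class limit, and leaving out single microarrays. R 4.3.3, limma 3.58.1, Python 3.11.15, numpy 2.4.6, pandas 2.3.3 and matplotlib 3.10.9 were used.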

Additional observations from a re-analysis of the deposited data

How the results depend on the processing

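The total of 1451 calls ranged from 1141 to 1880 under other filters, pseudocount, normalization, spread and choice of fitted microarrays, and 854 of the calls (487 higher in agamous, 367 higher in ap3-6) were over 2-fold. No probe set was called in the opposite direction under any of these fits. With the replicate block the count was 1719, of which 1450 were among the 1451. The B minus A differences of agamous and ap3-6 correlated at 0.0253 over all probe sets and 0.150 above the median, so A and B share a letter and were not treated as pairs. Without 1 of the 4 mutant microarrays 705 to 994 were called (400 to 606 higher in agamous, 296 to 388 higher in ap3-6), which leaves 1 sample with a single microarray assumed to vary like the others, and 677 to 861 of these were among the 1451. Without A of the leaves 4 h after salicylic acid, 1487 were called (824 and 663), with 20 inflorescence-high probe sets higher in ap3-6, and 263 of the agamous set were lower and 141 of the ap3-6 set higher in ap1-10. The share of calls higher in agamous was 53.3% to 61.6%, against 56.0%. The 4 named probe sets kept their direction and call in every fit that held them, though with the pseudocount the log2 ratio of 250648_at was 4.13 and that of 260038_at 3.21.

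In the inflorescence-high class, calls higher in agamous were 121 with the floral microarrays alone and 10 with the filter, which leaves 34 of the 295. Calls higher in ap3-6 were 3 with the filter, 7 of 188 at the 8-fold class limit and 8 to 12 without 1 mutant microarray. In the silique-high class, calls higher in agamous were 13 in both restricted fits, 2 with the filter (11 probe sets left), 1 of 106 at 8-fold (6 higher in ap3-6) and 4 to 5 without 1 mutant microarray. Those higher in ap3-6 were 18 with the floral microarrays or the pseudocount, 14 with the mutant microarrays alone, 2 with the filter and 5 to 7 without 1 mutant microarray. Other than where fewer probe sets or microarrays were fitted, the cause was not tested.

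The median silique over inflorescence ratio of the agamous set was -0.34 with the floral microarrays, -0.16 with the filter, -0.21 with the pseudocount, -0.23 after quantile normalization, -0.40 over 2-fold and -0.42 to -0.22 without 1 microarray. That of the ap3-6 set was -0.27 with the floral microarrays, -0.25 without trend, -0.13 after quantile normalization, -0.26 to -0.14 without 1 microarray and -0.23 without A of the leaves 4 h after salicylic acid. Over 2-fold, 156 of the agamous set were lower and 65 of the ap3-6 set higher in ap1-10, and without 1 microarray these were 143 to 211 and 69 to 135. The Agilent ratio of the called probe sets was not run, since probe sets were not joined to loci. The floral and mutant fits, class settings, ap1-10 counts, limits on the low signal, single-mutant gains and the microarray of leaves at 4 h were chosen after seeing the data where they concern classes or placement. At low signal the technical SD limits what could be called.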
